A study of Mus musculus with 9 samples.

Results

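The genes described here encode mouse potassium channels and their auxiliary subunits. They were taken from the deposited table as every gene whose symbol is Kcn, 1 or more small letters and an optional number, with a mean of at least 1 TPM, a transcript abundance scaled for gene length and library size, over the 9 libraries. Of 93 genes with such a symbol 69 met this level, out of 13301 genes that did so in the whole table of 22192. All 69 were found in a RefSeq gene table of GRCm38.p6, the build also called mm10, which gives the positions below.

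RNA was labelled as coming from the brains of male KM mice, an outbred stock. One group held young mice of 5 months and a further group aged mice of 18 months, both given physiological saline, and the last held aged mice that received GRP-E1F2, a ginseng root polysaccharide, at 200 mg/kg. All 3 groups were dosed by mouth every 2 days for 4 weeks. Each group has 3 libraries, called parallel samples in the labels, with no word on separate animals. The p-values below thus speak of the spread among libraries, part or all of which may be technical. The 2 questions that the design poses are what differed with age under saline and what differed with GRP-E1F2 in aged mice. Both comparisons use the same aged saline libraries.

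In every group 1 library had values between those of the other pair at nearly all genes at which that pair differed at least 1.3-fold. Young library 3, aged saline library 2 and GRP-E1F2 library 3 did so at 96.9%, 100% and 97.2% of such potassium channel genes (32, 25 and 36 genes). Over all tested genes the shares were 89.2%, 91.5% and 91.8% of 2197, 3370 and 3345 such genes. Libraries in random order would give 33.3% without the 1.3-fold condition. That condition raises the share, so 33.3% is no chance level here. The libraries named were also picked as the highest of their groups, and genes that vary together are not separate draws. Results are therefore given also from 2 libraries per group, without these 3. The labelled tissue bore general neuronal transcripts throughout: 10 markers of neurons of any region summed to between 6135 and 7429 TPM in a library, while 13 photoreceptor genes, looked at because the extraction protocol speaks of retinas, summed to at most 8.28 TPM with Pdc and Cnga1 at 0 throughout. Of 4 genes on the Y chromosome none exceeded 0.174 TPM in any library, which goes against the label male. TPM values keep no record of read depth, so the depth is unknown.

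Potassium channels let potassium leave or enter a cell down its electrochemical gradient, and so set the resting potential of neurons and glia and end the action potential. Voltage-gated channels open on depolarisation, with tetramers built from pore-forming subunits and, in some, from silent subunits that reach the membrane only with a partner. Inward rectifiers and the leak channels with tandem pore domains act near rest, while other channels open on internal calcium or sodium. Different neurons use different sets: fast-spiking cells such as cerebellar Purkinje cells and many interneurons rely on the Kcnc family to repolarise quickly, and pyramidal cells of the cortex on Kcnq channels to restrain firing.

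The 69 genes spanned a wide range of levels. Over the 9 libraries 37 of them had a mean of at least 10 TPM, and 2 of at least 100 TPM. The highest were both auxiliary subunits: Kcnab2, a cytoplasmic beta subunit of the Kcna channels, at a mean of 197 TPM, and Kcnmb4, the neuronal beta subunit of the large-conductance calcium-activated channel, at 152 TPM. The leak channel Kcnk1, the fast voltage-gated Kcnc1 and the calcium-binding auxiliary subunit Kcnip2 followed at 98.4, 95.3 and 92.3 TPM. By role, 24 members are pore-forming voltage-gated subunits (Kcna, Kcnb, Kcnc, Kcnd, Kcnh and Kcnq), 8 are silent subunits (Kcnf, Kcng, Kcns and Kcnv), 11 are inward rectifiers (Kcnj), 8 are leak channels (Kcnk), 6 open on calcium or sodium (Kcnma, Kcnn and Kcnt) and 12 are auxiliary (Kcnab, Kcne, Kcnip and Kcnmb). Summed over all 69, the level was 1862 ± 24.9 TPM in young, 1778 ± 62.7 TPM in aged saline and 1715 ± 74.4 TPM in GRP-E1F2 libraries (mean ± SD, n = 3, as for all values written so below). Just inside the threshold stood Kcnn3, Kcnmb1 and Kcnh7, with means of 1.53, 1.54 and 1.58 TPM, and just outside it Kcnb2, Kcnj14 and Kcnh6, with 0.956, 0.867 and 0.844 TPM. All 69 were tested, and 4 of them had a mean below 1 TPM in at least 1 group.

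**Figure D1:**
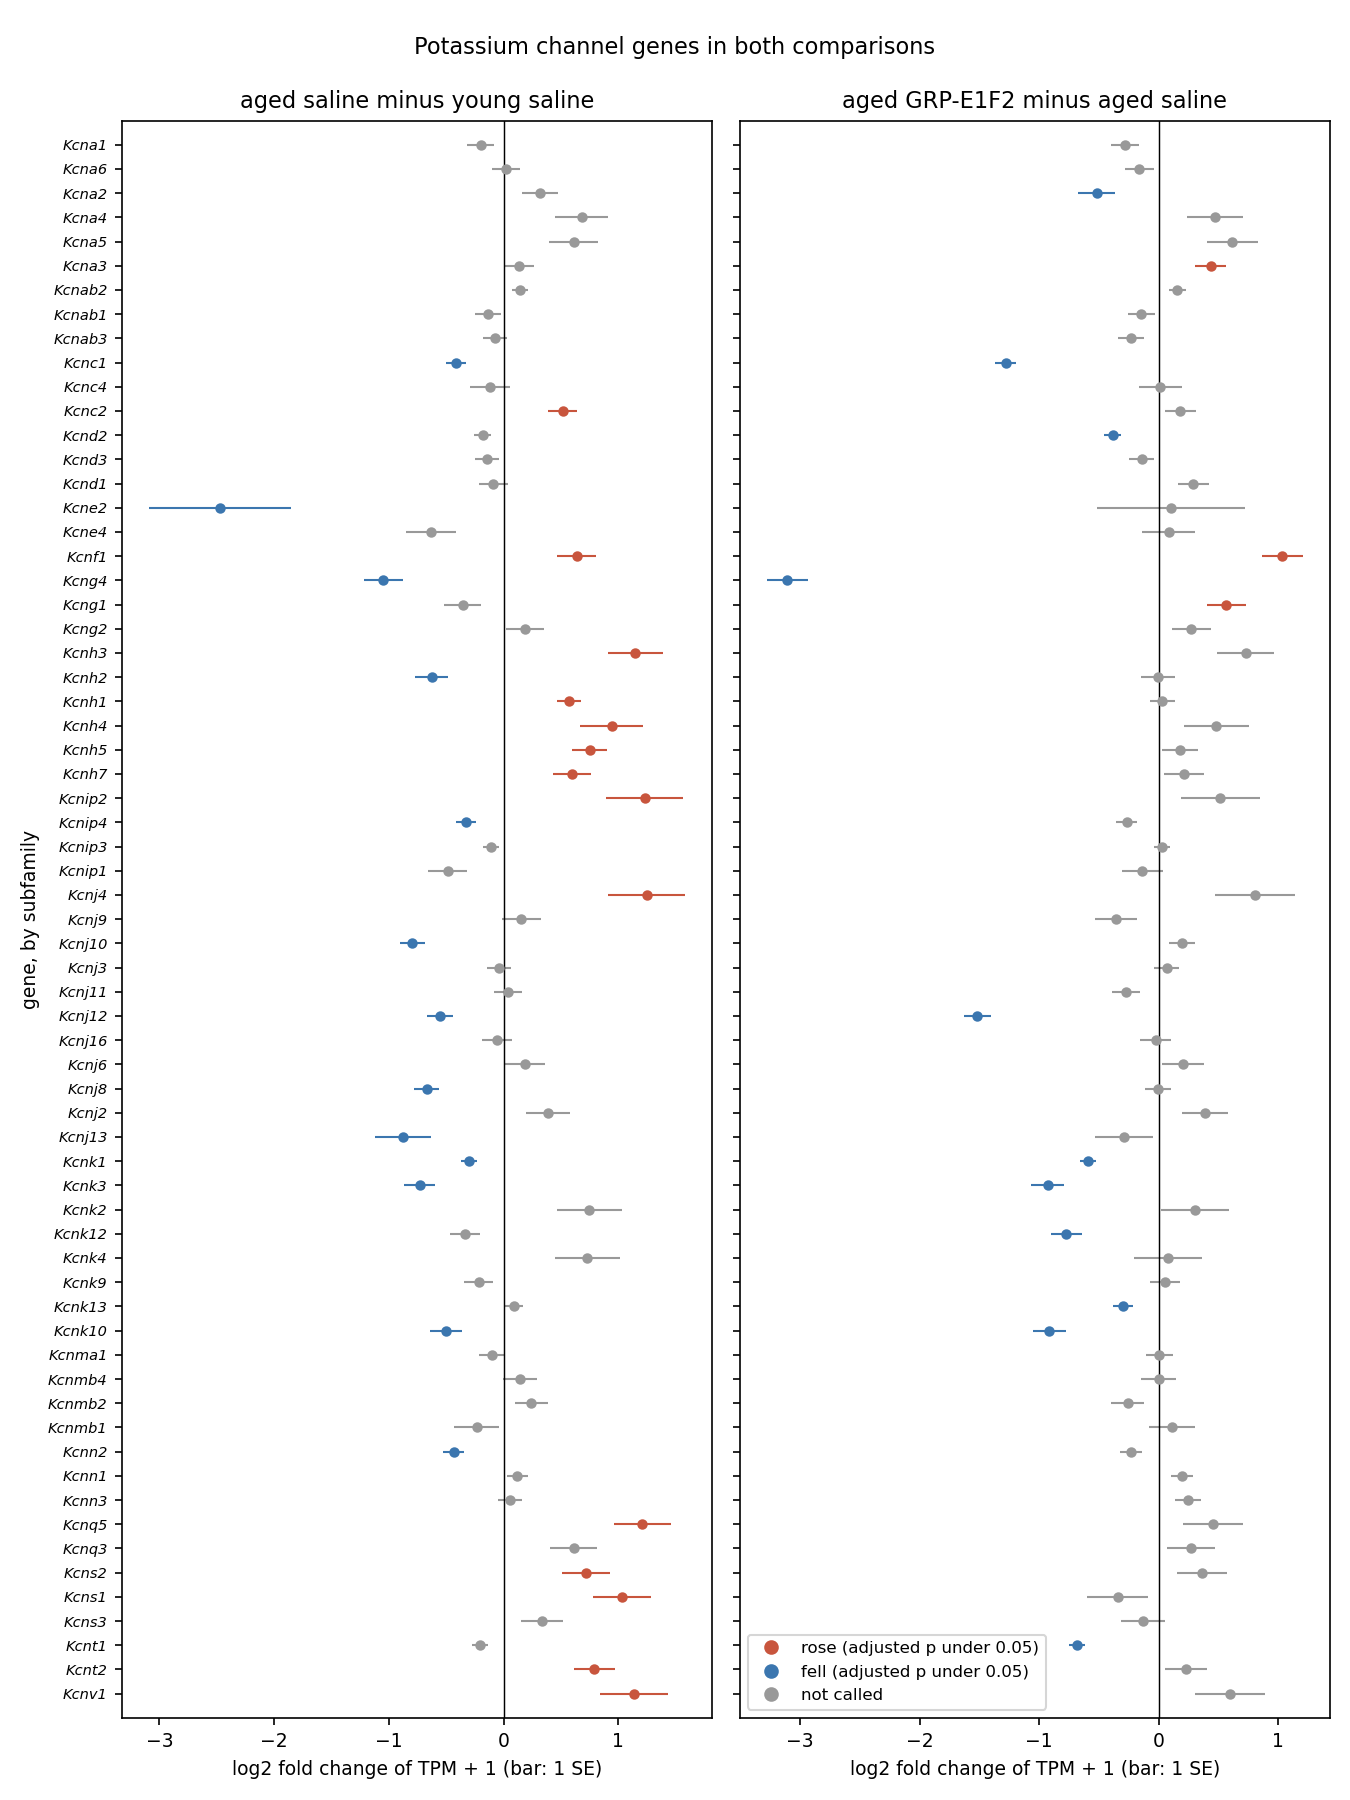
Log2 fold change on the TPM + 1 scale for 65 of the 69 potassium channel genes, grouped by subfamily, with age (left) and with GRP-E1F2 in aged mice (right); points are limma estimates, bars 1 SE, and colours mark genes that rose, fell or were not called. The fall of Kcng4 with GRP-E1F2, at -3.11, is the farthest from 0 on the right, and that of Kcne2 with age, at -2.47, the farthest on the left.

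With GRP-E1F2 the fast voltage-gated subunit Kcnc1, the silent subunit Kcng4, the inward rectifier Kcnj12, the sodium-activated Kcnt1 and 5 of 8 leak channels fell. Kcng4, which joins Kcnb channels, was 12.8-fold lower in mean TPM, Kcnj12 3.13-fold and Kcnc1, the fast channel subunit of granule cells and interneurons, 2.46-fold. In all 12 of the 69 genes fell and 3 rose (limma, Benjamini-Hochberg adjusted p under 0.05 over all genes tested). That is 17.4% and 4.35% of the members, beside 13.4% and 7.47% of all 13301 genes. The members' median log2 fold change was 0.03, beside -0.02 over all genes. Quantile normalisation gave 11 that fell and 6 that rose. With 2 libraries per group 5 fell and none rose (limma, 1 at an unadjusted p under 0.05), where 1.76% of all genes fell and 0.105% rose. Without overlap between the groups 14 members were lower and 10 higher with GRP-E1F2, beside 21.5% and 14.9% of all genes.

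Kcng4 (chromosome 8, 119623854 to 119635680) stood at 39.97, 59.9 and 50.7 TPM in young libraries 1, 2 and 3, at 19.1, 23.8 and 28.3 TPM in the aged saline and at 2.19, 1.51 and 1.86 TPM in the GRP-E1F2 libraries. The groups did not overlap and every GRP-E1F2 library was below every other library. The test with GRP-E1F2 gave a log2 fold change -3.11, SE 0.173, limma adjusted p = 7.20e-06, and 0.00347 with 2 libraries per group.

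Kcnc1 (chromosome 7, 46396219 to 46438706) went from 99.8, 102 and 110.0 TPM to 42.2, 42.7 and 41.8 TPM in the same order of libraries (log2 fold change -1.28, SE 0.0858, limma adjusted p = 1.95e-05, and 0.00939 with 2 libraries per group). Its GRP-E1F2 libraries were nearly level with each other and far below the lowest aged saline library.

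Kcnc4 and Kcnc2 did not pass. Kcnc4 stood at 27.7 ± 0.758 TPM in aged saline and 28.9 ± 8.78 TPM in treated libraries, and Kcnc2, a subunit of cortical interneurons, 13.9 ± 0.225 TPM and 15.9 ± 1.60 TPM. The shares within a subfamily were not tested. Among the Kcng subunits Kcng4 held 67.6% ± 0.965 with saline and 10.3% ± 0.297 with GRP-E1F2, when Kcng1, also silent alone, became the most abundant.

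Of the 11 inward rectifiers Kcnj12 alone passed with GRP-E1F2. Kcnj12 (chromosome 11, 61022564 to 61073269) went from 20.9, 21.8 and 24.3 TPM to 7.41, 6.72 and 7.27 TPM (log2 fold change -1.52, SE 0.114, limma adjusted p = 4.17e-05, and 0.0116 with 2 libraries per group). The sodium-activated channel Kcnt1 (chromosome 2, 25863791 to 25918273) went from 30.8, 29.6 and 32.1 TPM to 19.6, 17.6 and 19.3 TPM (log2 fold change -0.69, SE 0.0683, limma adjusted p = 2.15e-04, and 0.04 with 2 libraries per group). Its relative Kcnt2, at 2.03 ± 0.617 TPM and 2.54 ± 0.566 TPM, did not pass.

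Kcng4, Kcnj12, Kcnc1 and Kcnt1 are among the 5 members that also passed with 2 libraries per group and under each of the 21 alternatives. Since they fell together, the 250 bases before a transcript start are shown for those that RefSeq's promoter table (GRCm38.p6) holds, with Kcnj4, which had the highest log2 fold change with age, for comparison. The start lies at the end of the gene's span for Kcng4 and inside it for the other 3. Each runs 5′ to 3′ on the strand of the gene, and capitals mark any of the 4 motifs searched on both strands, of which no 2 different ones overlapped in the members' promoters: TATAAA (the TATA box), CCAAT (the CCAAT box), GGGCGG (the GC box) and CACGTG (an E-box).
Kcng4 (chr8:119635681-119635930, minus strand): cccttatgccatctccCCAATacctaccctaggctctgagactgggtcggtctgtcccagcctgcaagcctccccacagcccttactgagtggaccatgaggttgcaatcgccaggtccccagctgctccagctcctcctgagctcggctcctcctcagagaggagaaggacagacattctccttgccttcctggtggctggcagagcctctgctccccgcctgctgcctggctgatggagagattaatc
Kcnj12 (chr11:61065554-61065803, plus strand): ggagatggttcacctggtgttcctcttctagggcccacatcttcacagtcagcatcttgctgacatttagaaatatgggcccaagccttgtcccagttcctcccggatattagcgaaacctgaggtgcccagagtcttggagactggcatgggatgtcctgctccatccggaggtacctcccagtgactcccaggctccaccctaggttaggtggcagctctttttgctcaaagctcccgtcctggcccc
Kcnc1 (chr7:46396218-46396467, plus strand): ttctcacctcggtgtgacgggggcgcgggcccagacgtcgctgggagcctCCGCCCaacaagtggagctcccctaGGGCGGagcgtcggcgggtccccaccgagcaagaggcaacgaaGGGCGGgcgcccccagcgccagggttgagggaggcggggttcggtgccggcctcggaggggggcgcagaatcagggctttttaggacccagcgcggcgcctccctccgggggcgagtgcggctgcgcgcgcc
Kcnj4 (chr15:79505242-79505491, minus strand): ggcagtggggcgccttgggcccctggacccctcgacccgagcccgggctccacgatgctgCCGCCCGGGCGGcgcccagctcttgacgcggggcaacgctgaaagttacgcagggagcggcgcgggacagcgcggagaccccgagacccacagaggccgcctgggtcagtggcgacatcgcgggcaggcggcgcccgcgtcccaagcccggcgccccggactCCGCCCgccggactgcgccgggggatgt

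Promoters of genes that fell together were unlike in composition. Kcnc1 held 30 CpG dinucleotides and 3 GC boxes in its 250 bases, as Kcnj4 did with 35 and 3, while Kcng4 and Kcnj12 held 4 CpGs each and no GC box. Kcng4 had a CCAAT box and Kcnj12 none of the 4 motifs. Among all 32851 RefSeq promoters 32.7% held a GC box, 33.8% CCAAT, 12.4% TATAAA and 6.02% CACGTG. Of the 75 promoters of the 51 members with an entry 42.7% held a GC box, 32.0% CCAAT, 4.00% TATAAA and 6.67% CACGTG. These matches are descriptions of the letters and not of binding.

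**Figure D2:**
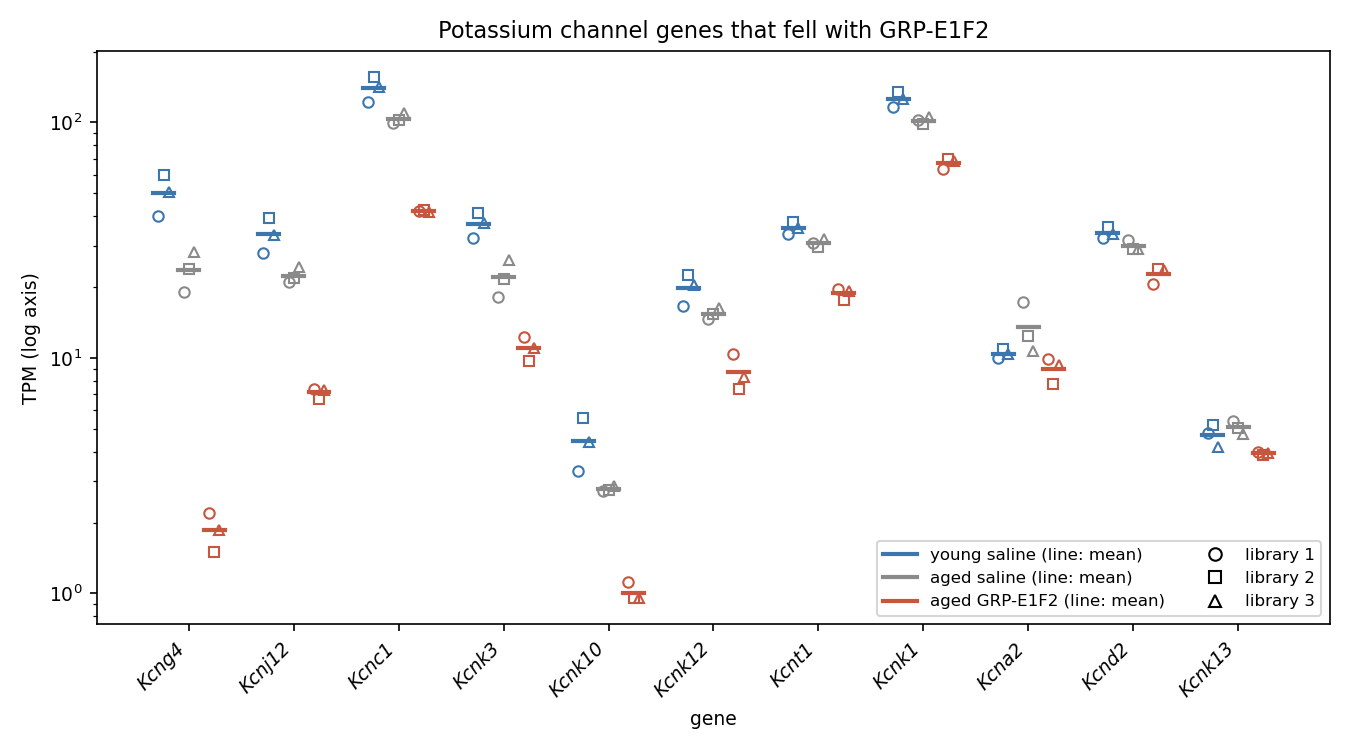
TPM in each library (log axis) of 11 of the 12 potassium channel genes that fell with GRP-E1F2, with open symbols for libraries and lines for group means. The GRP-E1F2 libraries lie below all aged saline libraries at each gene drawn, by the widest margin at Kcng4, with 2.19, 1.51 and 1.86 TPM.

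Leak channels with tandem pore domains made up 5 of the 12 genes that fell, out of 8 members, where 13.4% of all genes fell. Kcnk1 went from 102 ± 3.46 TPM in the aged saline to 67.3 ± 3.59 TPM in the treated libraries (log2 fold change -0.59, SE 0.0671, limma adjusted p = 4.72e-04). The acid-sensitive Kcnk3 went from 18.2, 21.7 and 26.1 TPM to 12.3, 9.69 and 11.1 TPM (adjusted p = 0.00206, limma). Kcnk10, a mechanically gated channel, went from 2.78 ± 0.0733 TPM to 1.01 ± 0.0947 TPM and Kcnk12 from 15.4 ± 0.878 TPM to 8.68 ± 1.53 TPM. Kcnk13, a channel of microglia, fell from 5.07 ± 0.322 TPM to 3.93 ± 0.0398 TPM (adjusted p = 0.0343, limma), a call that ended without aged saline library 1 or 2, or any 1 of the GRP-E1F2 libraries. At none of the 5 did a GRP-E1F2 library reach an aged saline library. The other 3 leak channels Kcnk2, Kcnk4 and Kcnk9 were not called, and Kcnk2, which fatty acids and stretch open, was 22.01 ± 2.13 TPM and 27.8 ± 6.54 TPM. None of the 5 passed with 2 libraries per group (limma), where their adjusted p ran from 0.061 for Kcnk1 to 0.423 for Kcnk13. Summed over the 8 leak channels the level was 183 ± 5.40 TPM in aged saline and 135 ± 2.81 TPM in treated libraries.

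Among the remaining voltage-gated genes Kcnd2, which carries a fast inactivating current in dendrites and is abundant in cerebellar granule cells, fell from 31.7, 29.02 and 29.1 TPM to 20.6, 23.9 and 23.6 TPM (log2 fold change -0.39, SE 0.0738, limma adjusted p = 0.00726). The axonal channel Kcna2 fell from 17.4, 12.4 and 10.8 TPM to 9.92, 7.72 and 9.29 TPM (adjusted p = 0.0414). The call of Kcna2 ended without any 1 of the young libraries, aged saline library 1 or 2, or GRP-E1F2 library 2 or 3. Kcna1, Kcna6, Kcnd1 and Kcnd3 were not called, and Kcna1, which sets the threshold of many axons, was 20.5 ± 4.02 TPM and 16.5 ± 0.403 TPM.

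The 3 genes that rose with GRP-E1F2 were Kcnf1, Kcng1 and Kcna3. Kcnf1, a silent subunit known from the cortex, rose from 23.05, 21.1 and 19.8 TPM to 48.02, 40.9 and 45.1 TPM (log2 fold change 1.03, SE 0.173, limma adjusted p = 0.00373, and 0.14 with 2 libraries per group). Every GRP-E1F2 library was above every saline library. Kcng1 rose from 4.95, 6.34 and 8.48 TPM to 11.9, 8.62 and 9.85 TPM and Kcna3, a channel of lymphocytes and microglia, from 1.65, 1.61 and 1.94 TPM to 3.29, 2.16 and 2.71 TPM. Their adjusted p-values were 0.0387 and 0.0439 (limma), and both calls ended when 1 library was left out, in 7 of 9 cases each. Of 11 microglial markers 4 rose with GRP-E1F2 and none fell, their sum going from 195 to 208 TPM to 201 to 271 TPM with none at 0, and their part in the values of Kcna3 and Kcnk13 was not tested. Leaving out 1 library gave 10 to 15 genes that fell and 1 to 5 that rose: 1 without young library 3, aged saline library 1, aged saline library 2 or GRP-E1F2 library 3, and 5 without young library 2 or GRP-E1F2 library 2.

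Marker genes of some brain regions moved with the same comparison. Counts of called markers, above and below, are to be set beside the shares of all genes tested. With age 5.48% of these rose and 11.2% fell, and with GRP-E1F2 7.47% rose and 13.4% fell. All 12 genes of cerebellar neurons fell, and their summed level was 3513 to 5056 TPM in young, 2187 to 2563 TPM in aged saline and 205 to 210.3 TPM in GRP-E1F2 libraries, with no gene at 0 in a whole group. They include Pcp2 of Purkinje cells, at 807 ± 163 TPM in aged saline and 5.99 ± 2.97 TPM in treated libraries, and Cbln1 of granule cells, at 359.6 ± 19.1 TPM and 12.7 ± 2.79 TPM. Of 12 genes of the hindbrain and spinal cord 6 were tested and 1 fell, and 4, among them Hoxb5, Hoxd3 and Slc6a5, were listed at 0 in all GRP-E1F2 libraries. The 6 tested were already low in aged saline libraries, with a mean log2(TPM + 1) of 0.244 to 1.12, which leaves little room for a fall. Of 14 striatal and 13 neocortical genes none was called, and thalamic genes fell at 3 of 11 and rose at none. Astrocyte genes fell at 6 of 12 and rose at 1, and genes of any neuron fell at none and rose at 2 of 10. In bulk samples fewer cells of a type and less RNA per cell cannot be told apart, and the part of these markers in the channel results was not tested.

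**Figure D3:**
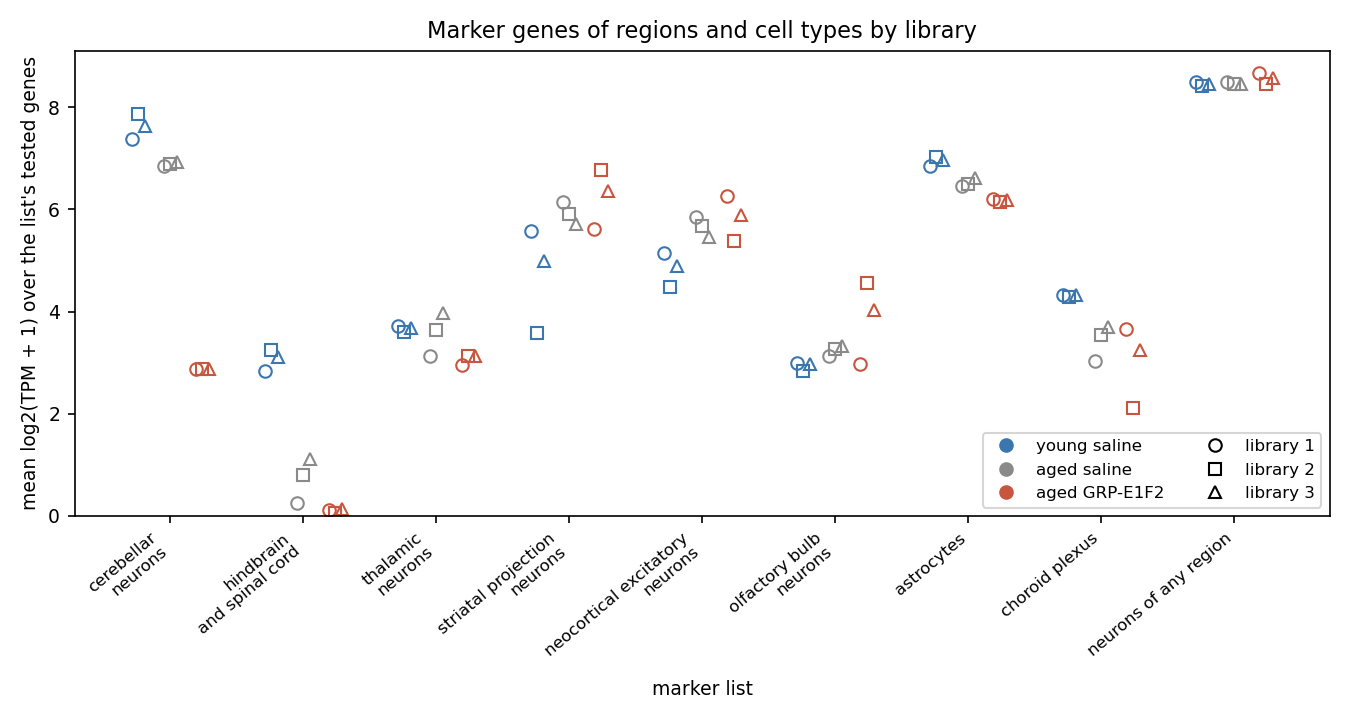
Mean log2(TPM + 1) of the tested genes of 9 marker lists in each library, coloured by group with symbols for library numbers. Cerebellar genes lie between 2.87 and 2.89 in the GRP-E1F2 libraries and between 6.84 and 6.94 in the aged saline libraries, and striatal genes in young library 2, at 3.58, lie below all other libraries.

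With age under saline, 16 of the 69 genes rose and 15 fell (limma, adjusted p under 0.05). That is 23.2% and 21.7% of the members, beside 5.48% and 11.2% of all genes tested, with a median log2 fold change of 0.04 beside -0.05 over all genes. The counts include 4 members that had a group mean below 1 TPM and were tested through the groups where they are higher: Kcnh5, Kcnh7 and Kcnt2 among the rises and Kcnj13 among the falls. Among those that rose, the log2 fold change was 1.25 at Kcnj4, an inward rectifier of forebrain neurons, 1.23 at Kcnip2, 1.21 at Kcnq5, a channel of the M current that restrains repeated firing, and 1.15 at Kcnh3, the 4 highest. In mean TPM these rose 2.17-, 2.21-, 2.69- and 2.18-fold. Among those that fell it was -2.47 at Kcne2, -1.05 at Kcng4 and -0.88 at Kcnj13. With 2 libraries per group no member passed (limma), while 15 were higher and 11 lower at an unadjusted p under 0.05, and 0.00752% of all genes rose and 0.015% fell. The groups did not overlap at 24 members that were higher and 22 that were lower, beside 14.7% and 26.8% of all genes.

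The number of rises varied with the libraries used. At all 16 genes young library 2 was the lowest and young library 1 the highest of the young, and aged saline library 1 was the highest of the aged at 15. Without young library 2 only 3 of the 69 rose and 5 fell, and without aged saline library 1 it was 4 and 13. Without young library 3 or aged saline library 2, which lay between the others of their group, none rose and 4 fell in either case (limma; 20 and 21 higher at an unadjusted p under 0.05), and without GRP-E1F2 library 3 there were 6 and 11.

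Kcnj4 was 51.6, 15.4 and 35.2 TPM in young libraries 1, 2 and 3, 78.7, 70.9 and 71.9 TPM in aged saline and 119.7, 139 and 130.4 TPM in GRP-E1F2 libraries. Young library 2 stood far below the other 2 young libraries, and no young library reached an aged one. The age test gave a log2 fold change 1.25, SE 0.336, limma adjusted p = 0.0368. Kcnip2, which binds Kcnd channels and speeds their recovery, was 65.6, 22.1 and 43.4 TPM in young and 120.5, 92.7 and 76.2 TPM in aged saline libraries (log2 fold change 1.23, SE 0.333, limma adjusted p = 0.0376). The groups did not overlap, but the young libraries lay farther apart from each other than the highest young from the lowest aged library.

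**Figure D4:**
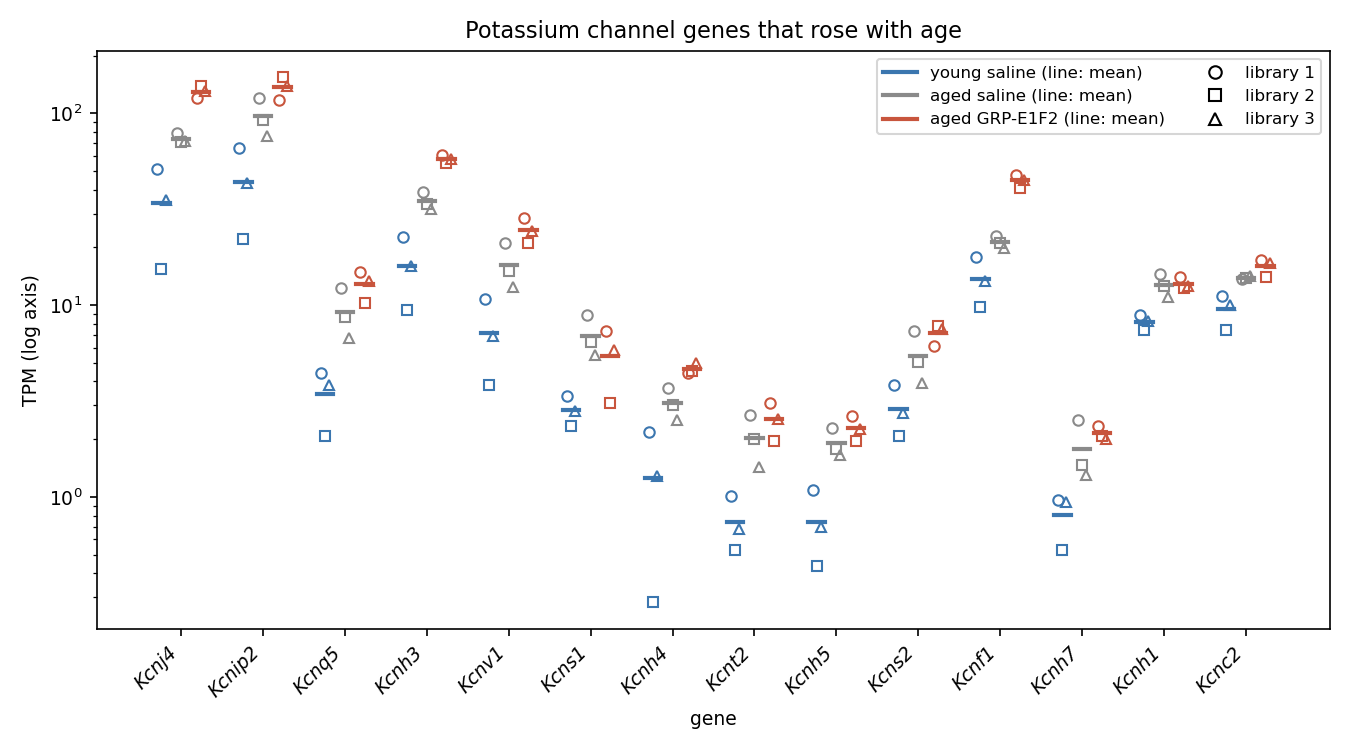
TPM in each library (log axis) of 14 of the 16 potassium channel genes that rose with age, in order of log2 fold change, with open symbols for libraries and lines for group means. Young library 2 (blue squares) is the lowest of the young libraries at all 14, at Kcnh4 with 0.282 TPM against 2.17 TPM in young library 1.

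In the Kcnh subfamily, voltage-gated channels of the ether-a-go-go type, calls went both ways. Kcnh3 was 22.5, 9.39 and 15.9 TPM in young and 38.7, 33.7 and 31.8 TPM in aged saline libraries (log2 fold change 1.15, SE 0.239, limma adjusted p = 0.0172). Kcnh1 was 8.88, 7.44 and 8.22 TPM and 14.5, 12.6 and 11.01 TPM (adjusted p = 0.0115), and Kcnh4, Kcnh5 and Kcnh7 were lower in level, at 1.25 ± 0.944 TPM, 0.738 ± 0.327 TPM and 0.809 ± 0.244 TPM in the young against 3.07 ± 0.583 TPM, 1.90 ± 0.330 TPM and 1.77 ± 0.661 TPM in the aged. Kcnh5 and Kcnh7 reached the level for testing only through the aged groups, where they are higher, so their calls are no support for a rise. Kcnh2, best known for the repolarising current of the heart, fell from 23.1, 25.5 and 25.6 TPM to 12.2, 15.6 and 19.97 TPM (log2 fold change -0.63, SE 0.142, limma adjusted p = 0.0221). Kcnh2 held 48.8% ± 9.58 of the summed TPM of the subfamily in young and 22.9% ± 6.37 in aged saline libraries, and Kcnh3 30.05% ± 8.40 and 49.5% ± 2.91.

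Kcnq5 was 4.43, 2.08 and 3.82 TPM in young and 12.4, 8.68 and 6.70 TPM in aged saline libraries (log2 fold change 1.21, SE 0.251, limma adjusted p = 0.017). Every aged library was above every young one. Kcnq3, also a subunit of the M current, was 3.61 ± 1.11 TPM and 5.98 ± 1.28 TPM and was not called.

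Silent subunits rose at 4 of 8 and Kcng4 fell, where 5.48% of all genes rose and 11.2% fell. The call of Kcns1 ended in 4 fits that left out 1 library, and those of Kcnv1, Kcnf1 and Kcns2 in 5 each. Kcnv1 was 10.8, 3.86 and 6.95 TPM in young and 21.1, 15.1 and 12.5 TPM in aged saline libraries, Kcnf1 13.7 ± 4.08 TPM and 21.3 ± 1.62 TPM, Kcns1 2.84 ± 0.515 TPM and 6.94 ± 1.74 TPM, and Kcns2 2.89 ± 0.878 TPM and 5.44 ± 1.71 TPM. Kcnc2 rose from 9.56 ± 1.94 TPM to 13.9 ± 0.225 TPM. The sodium-activated Kcnt2 was 0.739 ± 0.245 TPM and 2.03 ± 0.617 TPM, and it too was tested only because of its level in the aged groups. Of these rising genes only Kcnf1 also rose with GRP-E1F2.

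Some lists of marker genes of brain regions and cell types moved with age, in both directions. Of 14 genes of striatal projection neurons 2 rose and none fell, with a summed level of 662 to 2183 TPM in young, 662 TPM of it in young library 2, and 2220.5 to 3289 TPM in aged saline libraries. Of 13 neocortical genes 6 rose and none fell, and their sum was 4592 to 12815 TPM and 15337 to 22583 TPM, again lowest in young library 2 and most of it Nrgn, a calmodulin-binding protein of forebrain neurons. Of the 6 tested hindbrain and spinal cord genes all fell, their list summing to 47.96 to 66.7 TPM in young and 1.58 to 8.44 TPM in aged saline libraries. The mean log2(TPM + 1) of these 6 was 2.83 to 3.26 in young and 0.244 to 1.12 in aged saline libraries. They thus reached the level for testing mainly through the young group, and their count is no support for a fall. Of 12 cerebellar genes 11 fell. No gene of these 4 lists was at 0 in a whole saline group. Thalamic genes fell at 1 of 11 and rose at none. Their sum was 392 to 465 TPM in young, highest in young library 2, and 219 to 390.2 TPM in aged saline libraries. Their mean log2(TPM + 1) was instead lowest of the young in library 2, at 3.60 beside 3.73 and 3.68. In aged saline libraries 1, 2 and 3 it was 3.13, 3.64 and 3.98. Olfactory bulb genes rose at 1 of 7 tested and fell at none, while their list summed to 275 to 363 TPM and 159 to 239 TPM. Calb2 is in both lists and has the highest mean TPM of each, so the 2 sums are not independent. Of 15 genes of myelin and mature oligodendrocytes 13 fell with age and 5 with GRP-E1F2, none at 0, and their sum was 9384 to 9961 TPM in young, 6376 to 7665 TPM in aged saline and 5759.8 to 5920.4 TPM in GRP-E1F2 libraries. Microglial genes rose with age at 6 of 11, endothelial genes fell at 2 of 10, and of 8 genes of oligodendrocyte precursors none was called with age and 1 rose with GRP-E1F2. Of all genes tested 5.48% rose with age and 11.2% fell. The thalamic, olfactory bulb and endothelial counts with age are near these shares. The part of all these markers in the channel results was not tested.

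Of the 15 genes that fell with age 4, among them Kcng4, Kcnj8 and Kcnj10, kept their call when any 1 library was left out. Kcng4 was lower in all aged libraries than in any young one, at -1.05 on the log2 scale (adjusted p = 0.00842, limma). Kcnc1, Kcnj12, Kcnk1, Kcnk3 and Kcnk10 fell too, with log2 fold changes from -0.73 for Kcnk3 to -0.30 for Kcnk1. These genes and Kcng4 were among the 7 members that fell in both comparisons, which share the aged saline libraries. Young library 2 was the highest of the young at 12 of the 15.

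Kcnj10, the rectifier by which astrocytes take up potassium, was 42.2, 50.2 and 46.5 TPM in young and 24.5, 26.1 and 28.1 TPM in aged saline libraries (log2 fold change -0.79, SE 0.107, limma adjusted p = 0.00438). No aged library reached a young one. With GRP-E1F2 it was 26.2, 34.9 and 29.9 TPM, which did not pass against aged saline (adjusted p = 0.229). Kcnj16, its partner in astrocytes, was 8.004 ± 0.994 TPM, 7.63 ± 0.721 TPM and 7.54 ± 1.41 TPM in the 3 groups and was not called. Of 12 astrocyte markers 9 fell with age, with a sum of 3986 to 4753 TPM in young and 3214 to 3514 TPM in aged saline libraries and none at 0, and their part in the result was not tested.

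Kcnj8, the pore of an ATP-sensitive channel in pericytes and vascular muscle, was 6.69, 8.70 and 9.09 TPM in young and 5.07, 4.43 and 4.67 TPM in aged saline libraries (log2 fold change -0.67, SE 0.109, limma adjusted p = 0.00806). Abcc9, the sulfonylurea receptor that pairs with it, had a mean of 0.790 TPM and was not tested. Of 11 markers of pericytes and vascular smooth muscle 3 fell with age, and their sum was 204 to 219 TPM and 195 to 202 TPM, none at 0 (their part was not tested). Kcnj11, the neuronal pore of that channel type, was 24.2 ± 1.72 TPM and 24.9 ± 1.31 TPM and was not called, while its receptor subunit Abcc8 fell, 15.1 ± 1.27 TPM before and 10.5 ± 1.36 TPM at the later age (adjusted p = 0.0353) and further to 6.64 ± 1.21 TPM with GRP-E1F2 (adjusted p = 0.0128).

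Kcne2 and Kcnj13, both known from the choroid plexus, were called lower with age. Kcne2, the only member listed at 0 in any library and an auxiliary subunit at the apical face of that epithelium, was 10.4, 13.3 and 12.1 TPM in young, 0, 2.41 and 2.68 TPM in aged saline and 4.13, 0 and 2.04 TPM in GRP-E1F2 libraries (log2 fold change -2.47, SE 0.619, limma adjusted p = 0.0301). Kcnj13 was 3.56, 2.25 and 3.09 TPM, 0.781, 1.19 and 1.51 TPM and 1.50, 0.255 and 0.707 TPM (age adjusted p = 0.0409, limma), and 49.1% of its exon bases are shared with Gigyf2 on the opposite strand. The group means of Kcnj13 were 2.97, 1.16 and 0.821 TPM. It reached the level for testing mainly through the young group, where it is higher, so its call is no support for a fall. Both genes were uneven among aged libraries, with aged library 1 the lowest, and among treated libraries, with GRP-E1F2 library 2 the lowest. The 9 choroid plexus markers, 4 of which fell among 6 tested, summed to 2332 to 2389 TPM in young, 214 to 1299 TPM in aged saline and 57.6 to 1029 TPM in GRP-E1F2 libraries, the lowest being the same 2 libraries, and their part was not tested. The call of Kcne2 ended without young library 2 or 3, aged saline library 1 or 2, or GRP-E1F2 library 3, and that of Kcnj13 without those or young library 1. Both calls also ended with a pseudocount of 0.1 TPM. That of Kcnj13 ended too without the filter on low values and with median-of-ratios scaling, and held in 10 of 20 alternatives.

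Further falls with age were those of Kcnn2, a small-conductance calcium-activated channel, from 33.4 ± 3.09 TPM to 24.4 ± 1.53 TPM, and of Kcnip4, from 62.5 ± 4.92 TPM to 49.5 ± 4.20 TPM. The large-conductance channel Kcnma1 was 13.2 ± 1.97 TPM, 12.2 ± 0.585 TPM and 12.3 ± 1.41 TPM and its subunit Kcnmb4 141 ± 2.38 TPM, 156 ± 8.14 TPM and 159 ± 39.5 TPM, neither of them called. Of the auxiliary subunits of Kcna channels none was called in these 2 comparisons: Kcnab2 was 177 ± 7.70 TPM, 196 ± 6.05 TPM and 219 ± 18.1 TPM. Some subfamilies, such as Kcnf, Kcnma and Kcnv, have 1 member each, so they show no variation within the subfamily.

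The 31 members called in neither comparison ran from 1.53 TPM for Kcnn3 to 197 TPM for Kcnab2 in their mean over the 9 libraries. Among inward rectifiers they include 3 subunits of the G protein-gated channels, Kcnj3, Kcnj6 and Kcnj9, which neurons open through inhibitory receptors. A further such subunit, Kcnj5, lay below the threshold at a mean of 0.231 TPM and was not tested. Kcnj3 was 31.96 ± 2.51 TPM, 31.2 ± 4.18 TPM and 32.5 ± 2.41 TPM in young, aged saline and GRP-E1F2 libraries, and Kcnj6 5.68 ± 1.07 TPM, 6.54 ± 0.737 TPM and 7.79 ± 2.08 TPM. The others were Kcna1, Kcna4, Kcna5, Kcna6, Kcnab1, Kcnab2, Kcnab3, Kcnc4, Kcnd1, Kcnd3, Kcne4, Kcng2, Kcnip1, Kcnip3, Kcnj2, Kcnj11, Kcnj16, Kcnk2, Kcnk4, Kcnk9, Kcnma1, Kcnmb1, Kcnmb2, Kcnmb4, Kcnn1, Kcnn3, Kcnq3 and Kcns3.

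**Figure D5:**
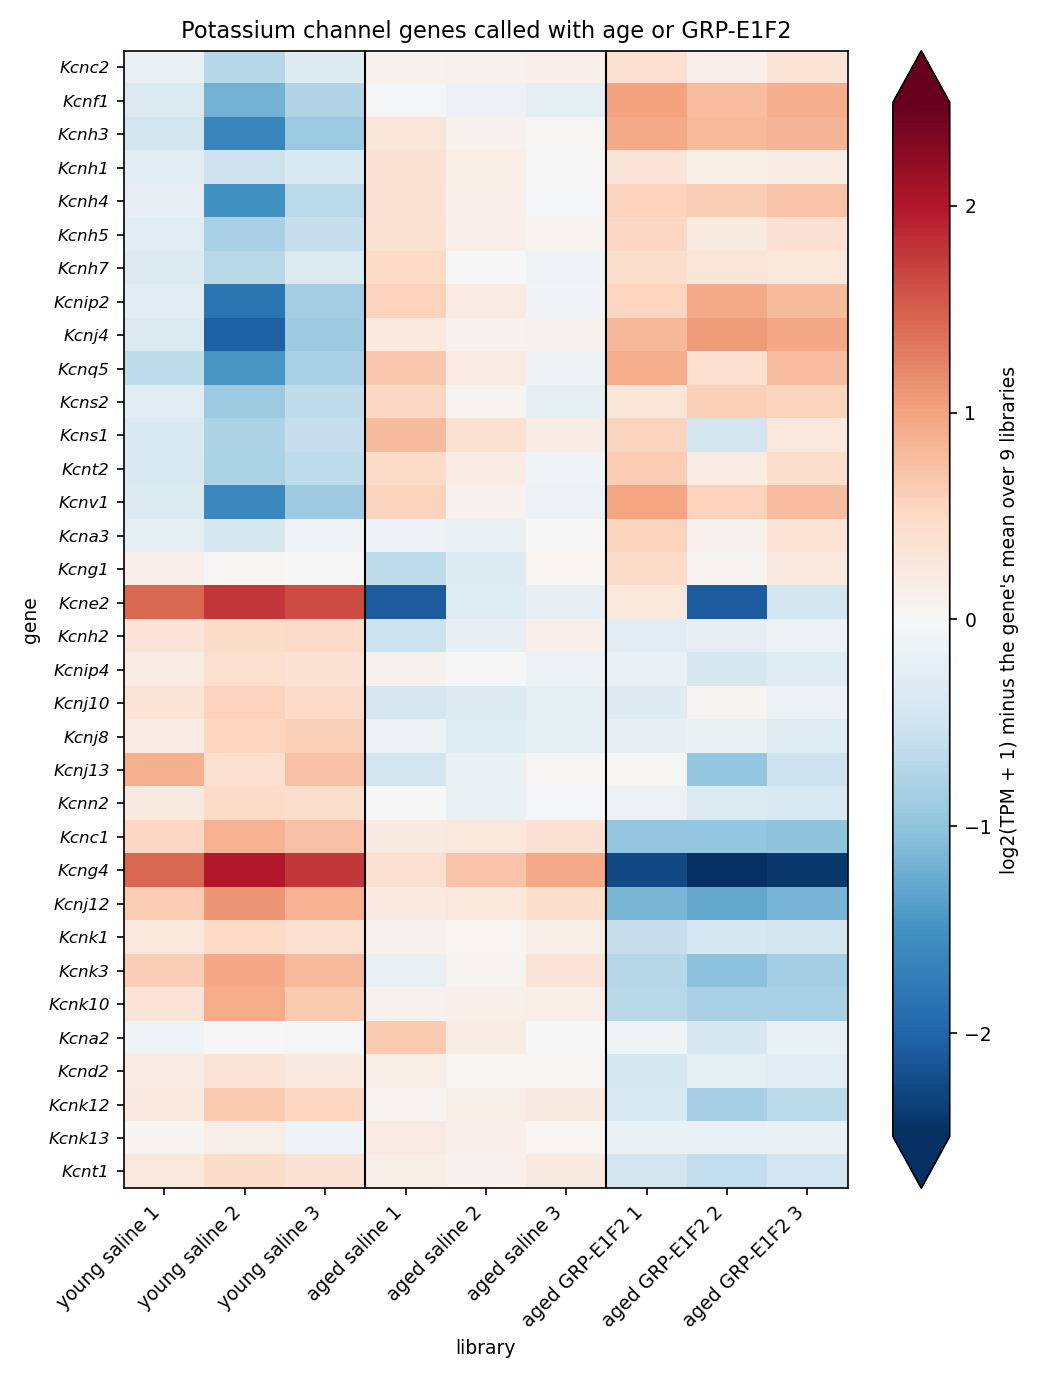
Log2(TPM + 1) of 34 of the 38 potassium channel genes called with age or GRP-E1F2 in each library, minus the gene's mean over the 9 libraries; red is higher and blue lower. The top 14 rows rose with age and have their lowest value in young library 2, and the 6 rows from Kcnc1 to Kcnk10 fell in both comparisons.

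Within a group, the ratio of the highest to the lowest library had a median of 1.34 over the 69 genes in the young, 1.21 in the aged saline and 1.32 in the GRP-E1F2 group. It was at least 1.3 at 35, 26 and 36 genes and at least 2 at 10, 1 and 5 genes, and reached 7.69 at Kcnh4 in the young. Kcne2 has no ratio in the last 2 groups. In the GRP-E1F2 group library 2 differed from library 1 at genes that were not called, such as the subunit of G protein-gated channels Kcnj9, at 62.5, 33.8 and 49.1 TPM, and Kcnmb4, at 200.0, 121 and 155 TPM. Markers of the anterior pituitary summed to 4.34, 884 and 447 TPM in GRP-E1F2 libraries 1, 2 and 3, beside 21.7 to 25.6 TPM in aged saline and 5.63 to 6.12 TPM in young libraries, with 6 of 8 tested and none called in the age or GRP-E1F2 comparison. Those of the olfactory bulb summed to 87.8, 276 and 188 TPM, with 3 of 7 tested genes called higher with GRP-E1F2 and none lower. Library 2 is the highest at both lists, and their part in the channel values was not tested.

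Against young saline, aged mice given GRP-E1F2 had 27 members higher and 22 lower (39.1% and 31.9%, beside 17.2% and 29.4% of all genes). With 2 libraries per group 7 were higher and 12 lower, beside 3.91% and 8.97% of all genes. The groups did not overlap at 24 and 26 members, beside 22.9% and 38.5% of all genes. This comparison shares its groups with the other 2 and adds no independent samples. The highest fold was that of Kcnj4, from 34.04 ± 18.1 TPM to 129.8 ± 9.83 TPM (log2 fold change 2.05, SE 0.336, limma adjusted p = 0.00116), and the lowest that of Kcng4, from 50.2 ± 9.99 TPM to 1.85 ± 0.342 TPM (log2 fold change -4.15, SE 0.173, limma adjusted p = 6.39e-07).

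Genes whose products work with potassium channels were read from lists of partners. Their counts here and in the next paragraph are to be set beside the shares of all genes tested. With age 5.48% of these rose and 11.2% fell, and with GRP-E1F2 7.47% rose and 13.4% fell. Of 6 partners of Kcnd and Kcnb channels Dpp6, which speeds Kcnd currents, fell with age from 106 ± 6.90 TPM to 77.9 ± 6.16 TPM (adjusted p = 0.0113), and Dpp10 rose with GRP-E1F2 from 27.95 ± 2.62 TPM to 33.1 ± 0.595 TPM (adjusted p = 0.0381). Of the gamma subunits of the large-conductance channel 2 of 4 were tested. Lrrc55 rose with age from 2.27 ± 0.281 TPM to 5.79 ± 0.767 TPM and with GRP-E1F2 to 8.50 ± 1.07 TPM, while Lrrc38 fell with GRP-E1F2 from 4.90 ± 0.915 TPM to 2.59 ± 0.676 TPM. Of 20 genes that cluster or anchor voltage-gated channels 3 fell with age, namely Ank2, Adam23 and Epb41l3. With GRP-E1F2 3 of these 20 fell, Lgi4, Cntn2 and Lgi3, and 2 rose, Dlg3 and Dlg4. The counts among these 20 that fell or rose are near the shares of all genes. Cntn2, which gathers Kcna channels beside the nodes of Ranvier, went from 24.3 ± 0.282 TPM to 16.1 ± 1.89 TPM (adjusted p = 0.00189).

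Of the 11 tested genes of the sodium-potassium pump, which restores the gradient, 4 fell and 1 rose with age, and 3 fell and 1 rose with GRP-E1F2. Atp1b2, the glial beta subunit, fell from 564 ± 64.04 TPM (young) to 353 ± 24.4 TPM (aged saline) and on to 214 ± 16.5 TPM with GRP-E1F2 (adjusted p = 0.00517 and 0.00104). Fxyd6, a pump modulator, rose with GRP-E1F2 from 205 ± 6.50 TPM to 328 ± 12.8 TPM (adjusted p = 7.29e-05, and 0.0319 with 2 libraries per group). Of 10 tested genes of potassium-chloride cotransport and its kinases 2 fell with age, Oxsr1 and Slc12a2, and Slc12a2 also fell with GRP-E1F2. Of the hyperpolarisation-activated channels and their subunit Pex5l none of 5 was called with age (limma, adjusted p from 0.0628 for Hcn2 to 0.586 for Pex5l), and 1 fell with GRP-E1F2.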

How the data were processed

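RNA sequencing was done on 9 libraries in 3 groups of 3. Per the submitters' processing notes, the tools were GATK, SAMtools 0.1.18, HISAT2 and Picard, and the build mm10. The deposited values are TPM per gene, which the authors computed. How TPM was computed, with which annotation and strand setting, is not stated, so reads of overlapping or near-identical genes could have been split in an unknown way (exons of 25 members share bases with another gene, by GENCODE M21).

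From these, log2(TPM + 1) of the 13301 genes at or above a 1 TPM mean went into 1 limma model over all 9 libraries (version 3.58.1, R 4.3.3, moderated with a mean trend). Tests were two-sided and adjusted by Benjamini-Hochberg over all genes, and adjusted p under 0.05 was called as risen or fallen. Fold changes on this scale understate low genes. The fit was tested on simulated libraries drawn independently of each other. In the real groups 1 library lay between the others at most differing genes, so that test cannot give the rate of false calls here. Members, lists and the fit of 2 libraries per group were chosen with earlier results of these data known. Genes named are the called members, the highest of each subfamily, those beside the threshold, called genes of partner lists and leading markers, and any other gene was chosen after its values were seen. Alternatives were pseudocounts of 0.1 and 5 TPM, no filter or a mean of 5 TPM, median-of-ratios and quantile scaling, no mitochondrially encoded genes, a replicate block, fits of the compared groups alone, eBayes made robust or without trend, and leaving out libraries. Count tests were not run, since the values are TPM. Protein sequences were not used here, and some genes are not reported here or drawn, though counts include them. Other tools were Python 3.11.15, numpy 2.4.6, pandas 2.3.3 and matplotlib 3.10.9.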

Additional observations from a re-analysis of the deposited data

How the results depend on the processing

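No called member changed sign under any of the 21 alternatives. With age, 16 members rose and 15 fell; without the filter on low values 9 rose, with 2 libraries per group 0 rose and 0 fell (limma, 15 and 11 at an unadjusted p under 0.05), and leaving out 1 library gave 0 to 19 that rose and 4 to 16 that fell. With GRP-E1F2, 3 rose and 12 fell; 1 rose without the filter, 6 with quantile normalisation, 0 rose and 5 fell with 2 libraries per group, and 1 to 5 rose and 10 to 15 fell when 1 library was left out. Against young saline 27 were higher and 22 lower, and 7 and 12 with 2 libraries per group. The cause of these differences was not tested. No pairing by replicate number was seen. Deviations of same-numbered libraries correlated at -0.055 to 0.126, beside -0.134 to 0.123 for libraries of unlike number. With 3 libraries per group this check cannot exclude pairing. With the replicate number as a block 16 rose and 14 fell with age, and 4 rose and 12 fell with GRP-E1F2. A mean of at least 5 TPM leaves 51 of the 69 members in the test. TPM keeps no depth, so counting error could not be given.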

Other observations

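Below the threshold of 1 TPM stood 24 further genes of the same name pattern, which entered no comparison of members. Of these 4, Kcne1, Kcnj1, Kcnk16 and Kcnk18, were listed at 0 in every library. Kcnq1, best known from the heart and the inner ear, had a mean of 0.329 TPM, Kcnn4, a calcium-activated channel of blood cells, 0.309 TPM, and Kcnj5, a subunit of the acetylcholine-gated channel of the heart, 0.231 TPM. These genes were named after their values were seen.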
